A study of Arabidopsis thaliana with 12 samples.

Results

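PDF1.2 and PDF1.2b, a pair of plant defensin genes, and THI2.1, a thionin gene, were followed in seedlings of Arabidopsis thaliana with mutations in the chromatin factors SDG8, HUB2 or both. The genes were found as the probe sets whose platform annotation gives exactly 1 gene symbol and that symbol is PDF1.2, PDF1.2b or THI2.1. This gave 3 of the 13350 genes so named, with 1 probe set each of the 22810 on the array, and all 3 passed the filter on low values described below. The study measured transcripts on Affymetrix 3' expression arrays in 4 groups of 3 arrays: wild type, sdg8, hub2 and the double mutant sdg8hub2. All groups were whole seedlings of ecotype Columbia, 6 days old, kept at 22 °C on a cycle of 16 h light, 8 h dark. The labels call the 3 arrays of a group biological replicates without saying what was separate between them. They name the mutations without an allele and give no hormone, wounding or pathogen treatment.

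Plant defensins and thionins are small, cysteine-rich, secreted peptides that act against fungi and other microbes. PDF1.2 is the standard marker of the defence branch in which jasmonate and ethylene act together: both hormones are needed for its full induction, through the receptor protein COI1 and the ethylene signalling protein EIN2, and the transcription factors ERF1 and ORA59 activate its promoter. THI2.1 responds to methyl jasmonate and is used as a marker of that hormone. The product of SDG8 methylates histone H3, and that of HUB2 is part of a ubiquitin ligase for histone H2B; both marks are associated with transcribed genes.

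The probe set for PDF1.2 (AT5G44420) is of the plain type, as is that for THI2.1 (AT1G72260). The probe set for PDF1.2b (AT2G26020) is of the _x_at type, in which some probes are shared with other sequences, so its signal can include transcripts of related genes. In the RefSeq gene order PDF1.2 lies next to PDF1.2c, and PDF1.2b next to PDF1.3, both of which are unnamed in the array annotation used here. The pair PDF1.2 and PDF1.2b belongs to the same subfamily, and the readings of its members are therefore not treated as independent of each other.

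The genes SDG8 and HUB2 are unnamed in the array annotation used here, so the mutations were not checked in the data. Values are the authors' deposited intensities on a linear scale. With the top and bottom 2% of values removed, each of the 12 arrays had a mean of 500. Changes are differences of log2 intensity from a linear model with 1 mean per group, fitted in limma to the 18196 probe sets whose mean lay above an intensity of 18.6, and a change is called at a Benjamini-Hochberg adjusted p under 0.05 over all of them. Among sdg8 arrays the correlation of log2 intensities ran from 0.939 to 0.950, lower than among wild-type arrays (0.964 to 0.965), and sdg8 replicate 1 correlated best with wild type replicate 3 (0.952). Results that rest on sdg8 were therefore recomputed without replicate 1 and with replicate 1 as the only sdg8 array, and calls that changed are named below. Of the seedling markers, PYK10, a glucosidase gene of roots, stood at 14584 to 18785 on the 12 arrays and LHCB4.1, an antenna protein gene of green tissue, at 16995 to 25817. The annotation names 2 of 10 root markers searched, PYK10 and EXPA7. It names 0 of 9 shoot, 0 of 9 seed and 0 of 6 flower markers, so LHCB4.1, LHCB4.2 and PORB were added for the shoot once the annotation had been seen. In whole seedlings, fewer cells of a type and less RNA per cell cannot be told apart.

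PDF1.2 read 264, 196 and 234 on the wild-type arrays of replicates 1, 2 and 3. In hub2 it read 658, 668 and 670. The sdg8 arrays gave 199, 171 and 118, and the double mutant 81.3, 70.8 and 97.4. The hub2 arrays were thus above every other array and nearly equal to one another, while the double mutant was below every other array. Wild type and sdg8 overlapped, since sdg8 replicate 1 lay between the wild-type values. On the log2 scale the group means were 9.38 ± 0.01 in hub2, 7.84 ± 0.22 in wild type, 7.31 ± 0.39 in sdg8 and 6.37 ± 0.23 in sdg8hub2 (SD, n = 3 each).

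PDF1.2b had the same order of groups. Its values were 434, 496 and 434 in wild type, and 1352, 1142 and 1145 in hub2. They were 294, 286 and 267 in sdg8, and 179, 116 and 282 in the double mutant. Here sdg8 lay wholly below wild type, and the double mutant was the scattered group: its replicate 3 read as high as the sdg8 arrays, and its highest value was 2.43 times its lowest. The log2 means were 10.24 ± 0.14 in hub2, 8.83 ± 0.11 in wild type, 8.14 ± 0.07 in sdg8 and 7.49 ± 0.64 in sdg8hub2 (SD, n = 3 each). Across the 12 arrays, which include the 4 groups, the log2 values of PDF1.2 and PDF1.2b had a Pearson correlation of 0.967. For deviations from the group means it was 0.453. Both describe probe sets that may share target transcripts.

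THI2.1 was dim on all arrays. It read 38.8, 34.9 and 31.0 in wild type and 28.8, 41.4 and 29.3 in sdg8. In hub2 it read 7.34, 38.4 and 29.7, and in sdg8hub2 10.3, 14.3 and 54.1. All 4 groups overlapped, and the spread in hub2 and the double mutant, 5.23-fold and 5.25-fold between the lowest and highest array, exceeded any distance between group means. Log2 means were 5.12 ± 0.16 in wild type, 5.03 ± 0.29 in sdg8, 4.34 ± 1.28 in hub2 and 4.32 ± 1.27 in sdg8hub2 (SD, n = 3 each), of which the last pair lay close to the filter value. No detection calls were used here, so the data do not say whether THI2.1 was above the array's background.

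**Figure D1:**
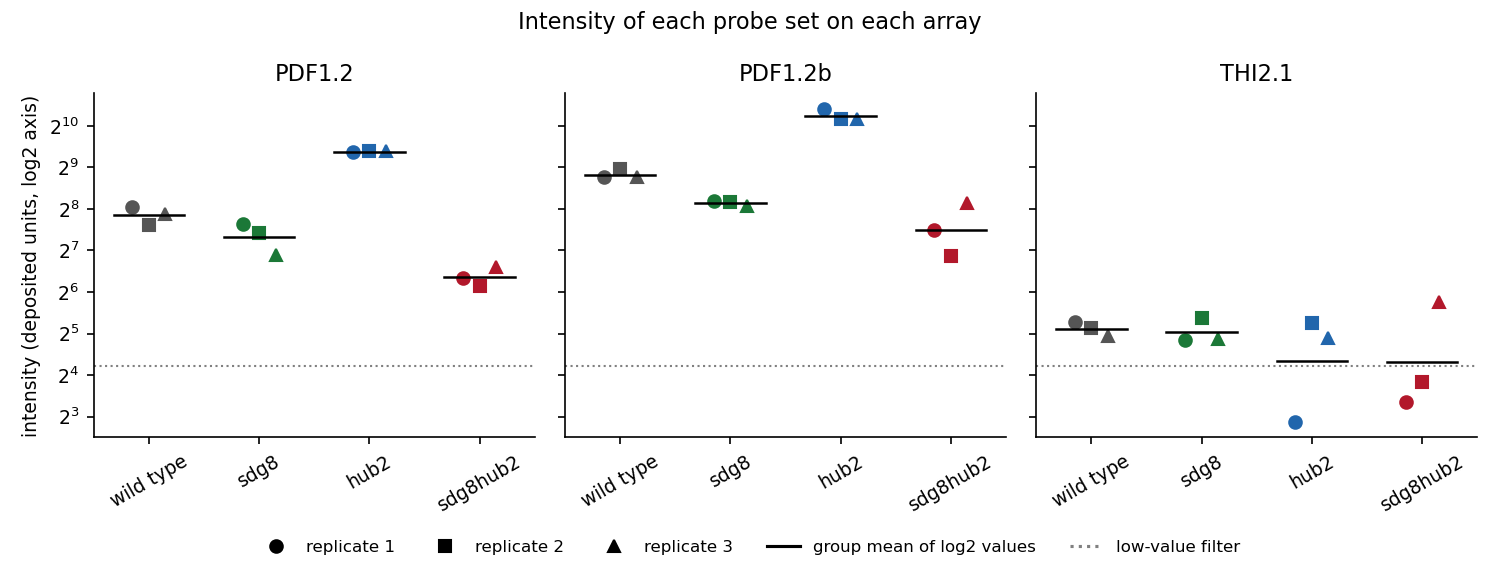
Intensity of PDF1.2, PDF1.2b and THI2.1 on each of the 12 arrays, on a log2 axis, by group. Each symbol is 1 array (shape gives the replicate), horizontal bars are group means of log2 values, and the dotted line is the filter value of 18.6. The hub2 arrays of PDF1.2 sit between 658 and 670, above all others, while the THI2.1 groups overlap.

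Which of these transcripts depend on HUB2 was asked by setting hub2 against wild type. PDF1.2 rose 2.90-fold, a log2 change of 1.53 (SE 0.19, limma adjusted p = 6.04e-05), and was higher in 3 of 3 hub2 arrays than in any wild-type array. PDF1.2b rose 2.67-fold, a log2 change of 1.41 (SE 0.20, limma adjusted p = 0.000286), again with no overlap. Both were called, in a comparison in which 1.4% of the probe sets tested rose and 1.46% fell. The share of all probe sets without overlap was not computed for any comparison, so a lack of overlap is a description only. PYK10, which was not called here, had no overlap either. By size of increase PDF1.2 ranked 75 and PDF1.2b 97 of 18196. THI2.1 had a log2 difference of -0.78 (95% interval -2.44 to 0.89, limma adjusted p = 0.734) that came mostly from hub2 replicate 1. Without that array the difference was -0.04. The hub2 arrays differed also in an RNA quality measure, the 3' minus 5' difference on one pair of actin control probe sets, which was 2.06 in replicate 2 and 1.29 and 1.31 in the others against 1.04 to 1.29 in wild type. With that difference as a covariate, an alternative chosen after seeing the data, PDF1.2 stood at 1.62 and PDF1.2b at 1.69 on the log2 scale, both still called, and without hub2 replicate 2 at 1.53 and 1.46. On the other actin pair, the planned covariate, hub2 replicates 1, 2 and 3 stood at 2.08, 3.77 and 3.26, against 2.85 to 3.38 in wild type. Replicates 1 and 2 thus both lay outside the wild-type range. With that covariate PDF1.2 stood at 1.55, and both defensins were still called. Among the shoot genes, LHCB4.2 rose by 0.82 and PORB, a protochlorophyllide oxidoreductase gene, by 0.57 on the log2 scale, while LHCB4.1 stood at 0.07 and did not pass. Neither root gene was called, or had an unadjusted p under 0.05. The part of tissue proportions in the defensin changes was not tested.

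In sdg8 against wild type, PDF1.2b fell by 0.69 on the log2 scale (SE 0.20, limma adjusted p = 0.025), 1.61-fold. PDF1.2 had a log2 difference of -0.53 (95% interval -0.93 to -0.13, limma adjusted p = 0.0682) and did not pass. So 1 of 3 genes was called, against 7.86% of all probe sets that fell and 6.41% that rose. Whether a gene passed changed when arrays were left out, also where the size of its difference changed little. Without sdg8 replicate 1 the PDF1.2 difference was -0.69 and passed (limma adjusted p = 0.0279). With replicate 1 as the only sdg8 array it was -0.21, and that of PDF1.2b -0.63 with no call (limma adjusted p = 0.282). The PDF1.2b call was also lost without any 1 of the wild-type arrays or without sdg8 replicate 2 or 3, with differences from -0.62 to -0.72. THI2.1 stood at -0.09 (95% interval -1.75 to 1.57). Of the shoot genes, PORB fell by 0.91 and LHCB4.2 by 0.41 while LHCB4.1 rose by 0.36, all on the log2 scale, and neither root gene was called, though both had an unadjusted p under 0.05 (-0.45 for EXPA7 and -0.19 for PYK10). With sdg8 replicate 1 as the only sdg8 array the calls of LHCB4.1 and LHCB4.2 were lost, the former also under quantile normalization (0.15, limma adjusted p = 0.136). Their part in the defensin values was not tested.

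The double mutant showed the opposite of hub2. Against wild type, PDF1.2 fell by 1.48 on the log2 scale (SE 0.19, limma adjusted p = 8.58e-06), 2.79-fold, and PDF1.2b fell by 1.33 (SE 0.20, limma adjusted p = 5.77e-05), 2.52-fold. Neither gene's groups overlapped, and nor did those of PORB and LHCB4.2, which were not called. In this comparison 10.5% of all probe sets fell and 8.01% rose. PDF1.2b was at -1.01 without sdg8hub2 replicate 2 and at -1.66 without replicate 3, and was called in both. Values for THI2.1 differed by -0.80 (95% interval -2.46 to 0.86, limma adjusted p = 0.556). None of the 3 shoot genes was called here by limma, with log2 differences from -0.23 to -0.03 and 1 of them, PORB, at an unadjusted p under 0.05. The root hair gene EXPA7 fell by 0.66 (limma adjusted p = 0.0216), a call lost without any 1 of 4 arrays, and its part in the result was not tested.

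Setting the double mutant against each single mutant shows what the second mutation did. Against hub2, in which the defensins were highest, PDF1.2 was 8.07-fold lower in the double mutant (log2 difference -3.01, SE 0.19, limma adjusted p = 3.18e-10) and PDF1.2b 6.71-fold lower (-2.75, SE 0.20, limma adjusted p = 2.71e-09). These were ranks 18 and 30 among the largest decreases of the 18196 probe sets, 9.85% of which were called lower and 7.17% higher. Against sdg8, PDF1.2 was 1.93-fold lower (-0.95, SE 0.19, limma adjusted p = 0.00165) with no overlap, which held also for the uncalled LHCB4.2. In that comparison 7.72% of all probe sets were lower and 6.7% higher. Of the shoot genes, PORB was higher there (log2 difference 0.68) and LHCB4.1 lower (-0.40), both called, while LHCB4.2 (0.25) did not pass. The LHCB4.1 call was lost with sdg8 replicate 1 as the only sdg8 array (-0.33). Neither root gene was called, and the part of tissue proportions was not tested. PDF1.2b was 1.57-fold lower there (-0.65, SE 0.20, limma adjusted p = 0.0343), but its groups overlapped. That call was lost without any 1 of the sdg8 arrays, with sdg8 replicate 1 as the only one (-0.71, limma adjusted p = 0.203), or without sdg8hub2 replicate 1 or 2. The value was -0.33 without sdg8hub2 replicate 2 and -0.97 without its replicate 3. The hub2 mutation thus went with higher PDF1.2 in seedlings without the sdg8 mutation and with lower PDF1.2 in those with it.

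Between the single mutants, PDF1.2 was 4.19-fold lower in sdg8 than in hub2 (log2 difference -2.07, SE 0.19, limma adjusted p = 1.2e-07) and PDF1.2b 4.29-fold lower (-2.10, SE 0.20, limma adjusted p = 2.07e-07). Of all probe sets, 8.73% were lower and 7.34% higher there. Among the shoot genes, LHCB4.2 and PORB were also lower than in hub2, with log2 differences of -1.23 and -1.48 in sdg8 and of -0.98 and -0.81 in the double mutant, all called. LHCB4.1 was higher in sdg8 than in hub2 (0.30) and not called in the double mutant against hub2 (-0.10), and the part of these genes' tissue in the defensin differences was not tested. The LHCB4.1 call in sdg8 against hub2 was lost under 7 of 25 processing alternatives. Among them were sdg8 replicate 1 as the only sdg8 array (0.23) and quantile normalization (0.16, limma adjusted p = 0.0925). It was lost too without sdg8 replicate 2 or hub2 replicate 2. THI2.1 was not called in any of these comparisons, or at an unadjusted p under 0.05, with 95% intervals of -2.37 to 0.95 for the double mutant against sdg8, -1.68 to 1.64 against hub2, and -0.97 to 2.35 for sdg8 against hub2. Intervals of this width leave room for changes as large as those of the defensins in sdg8.

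**Figure D2:**
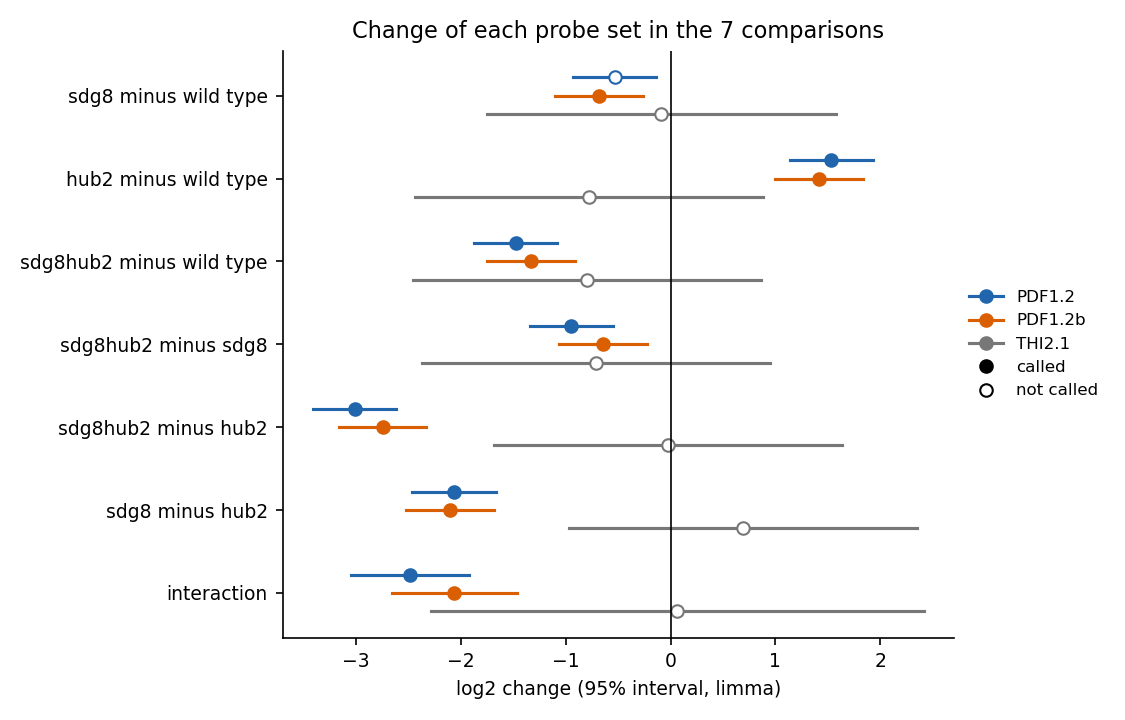
Log2 change of the 3 genes in the 7 comparisons, with 95% intervals from limma; filled points are called at an adjusted p under 0.05. PDF1.2 and PDF1.2b lie above 0 in hub2 against wild type and below 0 in the other 6, and the THI2.1 intervals all include 0.

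The interaction asks if the single changes, summed, give the level of the double mutant: it is the change from sdg8 to sdg8hub2 less the change from wild type to hub2, in log2 units. It was -2.48 for PDF1.2 (SE 0.27, limma adjusted p = 3.62e-06) and -2.06 for PDF1.2b (SE 0.29, limma adjusted p = 7.92e-05). Called interactions were found for 3.41% of probe sets below 0 and 3.05% above 0. If the changes of the single mutants had added up, PDF1.2 would have stood at an intensity of 461 in the double mutant, in which its measured mean was 82.5, and PDF1.2b at 752 in place of 180. The measured levels were thus 5.59-fold and 4.17-fold below the sums. Of the shoot genes, LHCB4.2 had an interaction of -0.57 and LHCB4.1 of -0.47, both called, and PORB of 0.10, which did not pass; their part was not tested. The LHCB4.1 call was lost with sdg8 replicate 1 as the only sdg8 array (-0.40, limma adjusted p = 0.134) and under quantile normalization (-0.21, limma adjusted p = 0.18). Without any 1 array the interaction of PDF1.2 stayed between -2.70 and -2.32 and that of PDF1.2b between -2.39 and -1.74, all called. THI2.1 gave 0.07 (95% interval -2.28 to 2.41), a value whose sign turned without any 1 of several arrays.

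**Figure D3:**
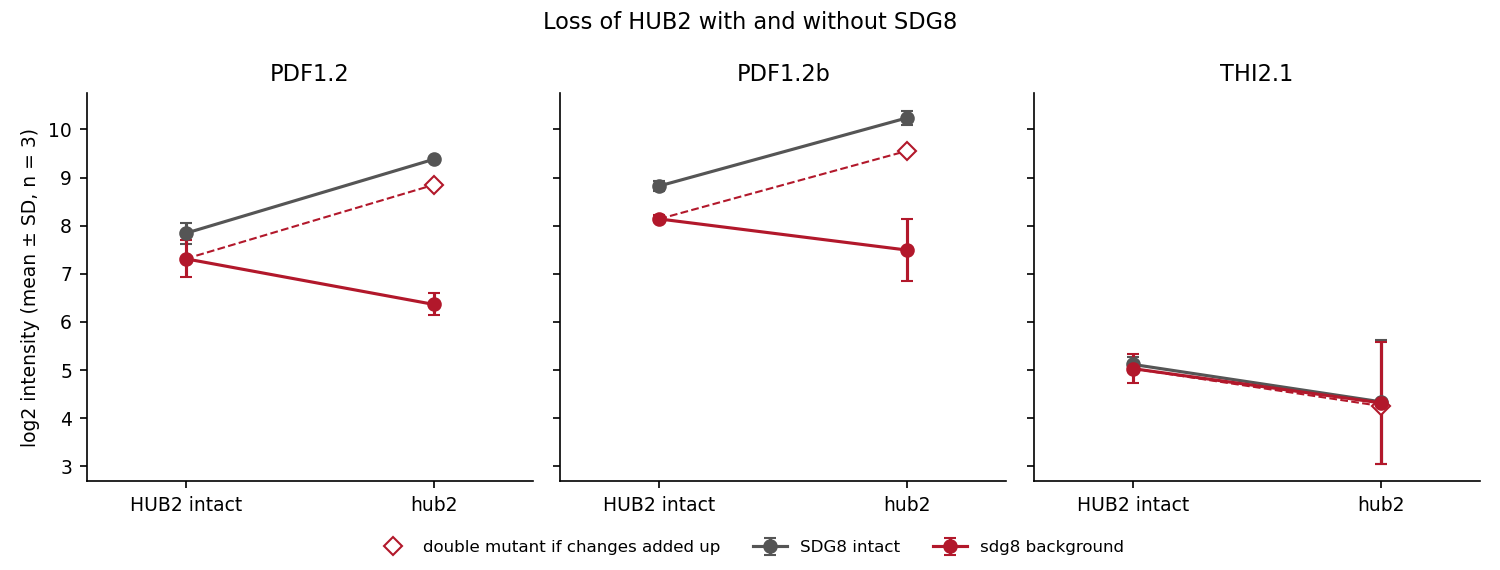
Log2 intensity (mean ± SD, n = 3 arrays) with HUB2 intact and in hub2, for seedlings with SDG8 intact (grey) and in the sdg8 background (red). Open diamonds mark the double mutant's level if the single changes added up. For PDF1.2 the diamond is at 8.85 and the measured mean at 6.37.

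The order of levels for PDF1.2 was hub2, wild type, sdg8 and sdg8hub2, from high to low. Each neighbour in that order differed by a call except wild type and sdg8. For PDF1.2b the order was the same, and all 3 neighbouring pairs were called, 1 of them (sdg8 and the double mutant) with overlapping arrays. For THI2.1 no neighbours differed beyond their spread.

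Other defensin and thionin genes were looked up by a list and name pattern, with 12 of 17 entries named on the array and 6 above the filter. Across the mutants against wild type they did not share the pattern of PDF1.2. PDF1.4, another defensin gene, was the one with the greatest change: it read 432 to 478 in wild type, 52.8 to 107 in sdg8, 474 to 550 in hub2 and 113 to 166 in the double mutant. It fell by 2.59 on the log2 scale in sdg8 (limma adjusted p = 1.19e-08) and by 1.68 in sdg8hub2 (limma adjusted p = 4.49e-06), and had a log2 difference of 0.19 in hub2 that did not pass. Its interaction of 0.73 did not pass (limma adjusted p = 0.157). PDF2.1 read 797 to 866 in wild type and was higher in all mutants, with log2 changes of 0.98 in sdg8, 0.66 in hub2 and 0.83 in the double mutant, all called. THI2.2, the other thionin gene, read 259 to 299 in wild type, 285 to 316 in sdg8, 170 to 201 in hub2 and 327 to 350 in sdg8hub2. THI2.2 fell by 0.53 in hub2 (limma adjusted p = 0.0399) and its interaction was 0.70 (limma adjusted p = 0.035), calls near the threshold. It did not pass against wild type in sdg8 (0.13, limma adjusted p = 0.617) or in the double mutant (0.29, limma adjusted p = 0.157). The hub2 call was lost without any 1 of the 6 wild-type and hub2 arrays, and that of the interaction without any 1 of 9 of the 12 arrays, sdg8 replicate 1 among them. With sdg8 replicate 1 as the only sdg8 array both were lost (-0.53, limma adjusted p = 0.0504, and 0.71, limma adjusted p = 0.147).

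By counts, in hub2 against wild type 1 of the 6 rose (PDF2.1), 1 fell (THI2.2) and 4 did not pass. Of all probe sets tested, 1.4% rose and 1.46% fell there. The median log2 change of the 6 was 0.16, and that of all probe sets tested 0.000334. In sdg8, 1 rose (PDF2.1), 2 fell (PDF1.4 and LCR68, also named PDF2.3) and 3 did not pass, with a median of 0.15 against -0.02 for all. Of all probe sets, 6.41% rose and 7.86% fell in sdg8. The double mutant had 2 higher (PDF2.1 and LCR69, also named PDF2.2), 1 lower (PDF1.4) and 3 not called, with a median of 0.06 against -0.05 for all. Of all probe sets, 8.01% were higher and 10.5% lower in it. Between mutants, the double mutant had 1 higher (THI2.2, 0.83), 2 lower (PDF1.4, -1.87, and LCR68, -0.29) and 3 not called against hub2, with a median of -0.11 against -0.04 for all. Of all probe sets, 7.17% were higher and 9.85% lower there. The LCR68 call there was lost under median centring (-0.20) and without the variance trend. It was lost too without hub2 replicate 3 (-0.22) or sdg8hub2 replicate 2 (-0.26). Against sdg8 the double mutant had 1 higher (PDF1.4, 0.91), 0 lower and 5 not called, beside 6.7% higher and 7.72% lower of all probe sets. The PDF1.4 call was lost with sdg8 replicate 1 as the only sdg8 array (0.41). In sdg8 against hub2, 2 were higher (THI2.2, 0.66, and PDF2.1, 0.32), 2 lower (PDF1.4, -2.78, and LCR68, -0.44) and 2 not called. Of all probe sets, 7.34% were higher and 8.73% lower there. With sdg8 replicate 1 as the only sdg8 array the calls of THI2.2 (0.65, limma adjusted p = 0.0582) and PDF2.1 (0.45, limma adjusted p = 0.0549) were lost, and that of PDF2.1 also without it (0.26, limma adjusted p = 0.109). The interaction was called above 0 for 1 (THI2.2), below 0 for 1 (PDF2.1, -0.81) and not for 4. Over all probe sets the shares were 3.05% above 0 and 3.41% below. Whether the counts of the 6 genes depart from the shares of all probe sets was not tested. LCR68 fell by 0.31 in sdg8 and LCR69 rose by 0.28 in sdg8hub2 on the log2 scale, and both calls were lost when any 1 of 3 arrays was left out. For LCR68 these include sdg8 replicate 1 (-0.27, limma adjusted p = 0.0556), and the call was lost too with it as the only sdg8 array (-0.38, limma adjusted p = 0.0626). The 6 members below the filter, LCR24, LCR59, LCR66, LCR67, LCR72 and LCR80, were not tested. LCR67, also named PDF1.1, ranged from 1.39 to 44.0 over the 12 arrays.

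**Figure D4:**
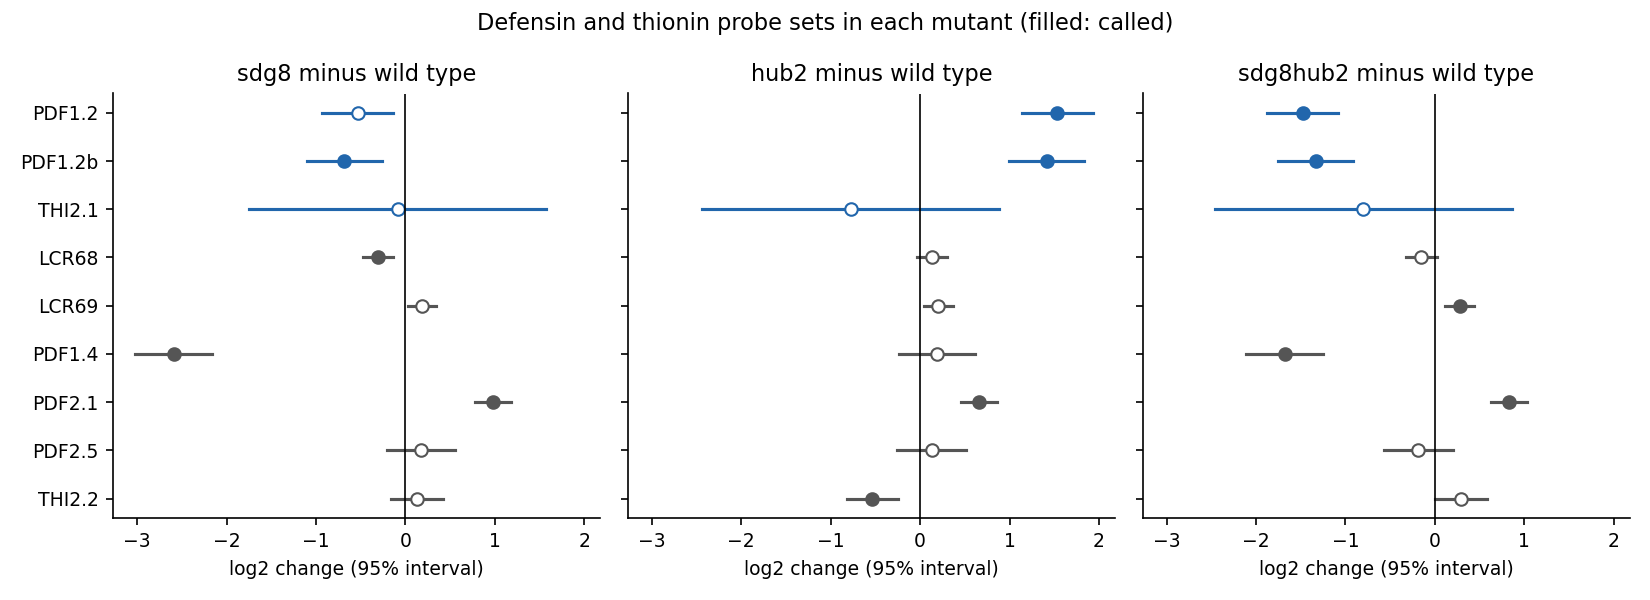
Log2 change with 95% interval of the 9 defensin and thionin probe sets that passed the filter, for each mutant against wild type, on 1 shared axis; the 3 genes of the report are blue and filled points are called. In hub2, PDF1.2, PDF1.2b and PDF2.1 are higher and THI2.2 lower. In the double mutant PDF1.2, PDF1.2b and PDF1.4 are lower, and PDF2.1 and LCR69 higher.

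Genes that make, sense or pass on jasmonate and ethylene were searched in 8 further lists, 1 of them for the salicylate response. Few are named in the array annotation: 3 of 18 for jasmonate synthesis, 3 of 13 for jasmonate transcription factors and 3 of 16 for ethylene perception and signalling. The lists of jasmonate receptors and repressors, wound response, ethylene synthesis, ethylene response and salicylate response have 0 named members. ERF1 and ORA59, from the list of jasmonate transcription factors, are themselves unnamed and were not analysed here. Of the jasmonate synthesis genes 1 of 3 passed the filter. OPCL1, which encodes a CoA ligase of jasmonate synthesis, read 130 to 204 in wild type and 92.5 to 98.7 in sdg8, and fell by 0.83 on the log2 scale (limma adjusted p = 0.014). It did not pass in hub2 (-0.30) or the double mutant (-0.61, limma adjusted p = 0.0615). The OPCL1 call was lost without wild type replicate 1 or 2 and with sdg8 replicate 1 as the only sdg8 array.

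None of 3 jasmonate transcription factor genes was called against wild type by limma, and 2 comparisons of theirs had an unadjusted p under 0.05: MYC4 in the double mutant (-0.87, limma adjusted p = 0.0578) and ORA47 in hub2. MYC4, a partner of MYC2 in the jasmonate response, read 69.1 to 135 in wild type, 57.0 to 81.7 in sdg8, 108 to 156 in hub2 and 40.2 to 74.3 in the double mutant. It was lower in the double mutant than in hub2, by a log2 difference of -1.31 (limma adjusted p = 0.00552), and lower in sdg8 than in hub2 by -1.01 (limma adjusted p = 0.0317), the latter lost without sdg8 replicate 1 (-0.90, limma adjusted p = 0.097), sdg8 replicate 3 or hub2 replicate 1 or 2, and with sdg8 replicate 1 as the only sdg8 array (-1.23, limma adjusted p = 0.105). Its relative MYC3 and the factor ORA47, which activates jasmonate synthesis genes, were called in 0 of the 7 comparisons. In hub2 ORA47 had a log2 difference of 1.58 from wild type (limma adjusted p = 0.29), with overlapping arrays (4.49 to 71.6 in wild type and 60.9 to 91.3 in hub2). Among the ethylene genes, EIN3, the main transcription factor of the pathway, and ETP2, an F-box protein gene that acts on EIN2, were called in 0 of the 7 comparisons, with EIN3 at an unadjusted p under 0.05 in 2 of them and ETP2 in 0. RTE1, a regulator of the receptor ETR1, was lower in the double mutant than in wild type (log2 difference -0.84, limma adjusted p = 0.00108), than in sdg8 (-0.74, limma adjusted p = 0.00448) and than in hub2 (-0.64, limma adjusted p = 0.0111). Its arrays read 414 to 451 in wild type and 194 to 329 in sdg8hub2. The call against hub2 was lost without any 1 of 3 arrays, and that against sdg8 with sdg8 replicate 1 as the only sdg8 array.

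For each of the 3 genes, the probe sets with 1 gene symbol whose log2 values followed it most closely over the 12 arrays were taken from 10227 others, by Pearson correlation and as a description only. PDF1.2 was followed by AT3G23080 (0.949), AT3G05500 (0.948), AT1G52000 (0.947), AT1G67360 (0.946) and AT4G22160 (0.945). Of all 10227, THI2.2 had the most negative value with PDF1.2 (-0.944), and AT5G11340 came next (-0.931). PDF1.2b shared AT1G52000 (0.951), AT4G22160 (0.947) and AT3G05500 (0.946) with PDF1.2, led by ALDH11A3, an aldehyde dehydrogenase gene (0.957), and followed by AT1G11850 (0.939). The group means of AT1G52000, a gene without a symbol of its own, were 89.8 in wild type, 82.5 in sdg8, 167 in hub2 and 57.7 in the double mutant, the order found for the defensins. Such values were reached by probe sets with far smaller changes too: AT3G05500 had group means of 1278, 1238, 1685 and 1157 in the same order of groups. Those most opposite to PDF1.2b were AT1G20430 (-0.941) and AT4G11120 (-0.927). For THI2.1 the highest value was 0.881 (AT3G15120) and the lowest -0.808 (MAB1), over arrays in which THI2.1 itself did not separate the groups.

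Of the genes next to the defensins in the genome only AT5G44410 could be read, as PDF1.2c and both neighbours of PDF1.2b are unnamed. AT5G44410, which neighbours PDF1.2, had group means of 154 in wild type, 152 in sdg8, 188 in hub2 and 152 in the double mutant, and its log2 change of 0.29 in hub2 did not pass (limma adjusted p = 0.631). AT1G72250 and AT1G72270, on either side of THI2.1, were called in 0 of the 7 comparisons. AT1G72270, with group means from 17.7 to 19.4, lay close to the filter value. At an unadjusted p under 0.05, AT1G72250 differed in 3 of the 7.

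The changes of PDF1.2 and PDF1.2b were recomputed under 25 processing alternatives, 24 for the interaction. PDF1.2 was called under all of them in the 6 comparisons in which it was called, with the hub2 increase between 1.31 and 1.64 on the log2 scale. PDF1.2b was called under all in 5 comparisons, with the hub2 increase between 1.33 and 1.48 when 1 array was left out, and lost its call under 7 alternatives in sdg8 against wild type and under 10 in the double mutant against sdg8.

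**Figure D5:**
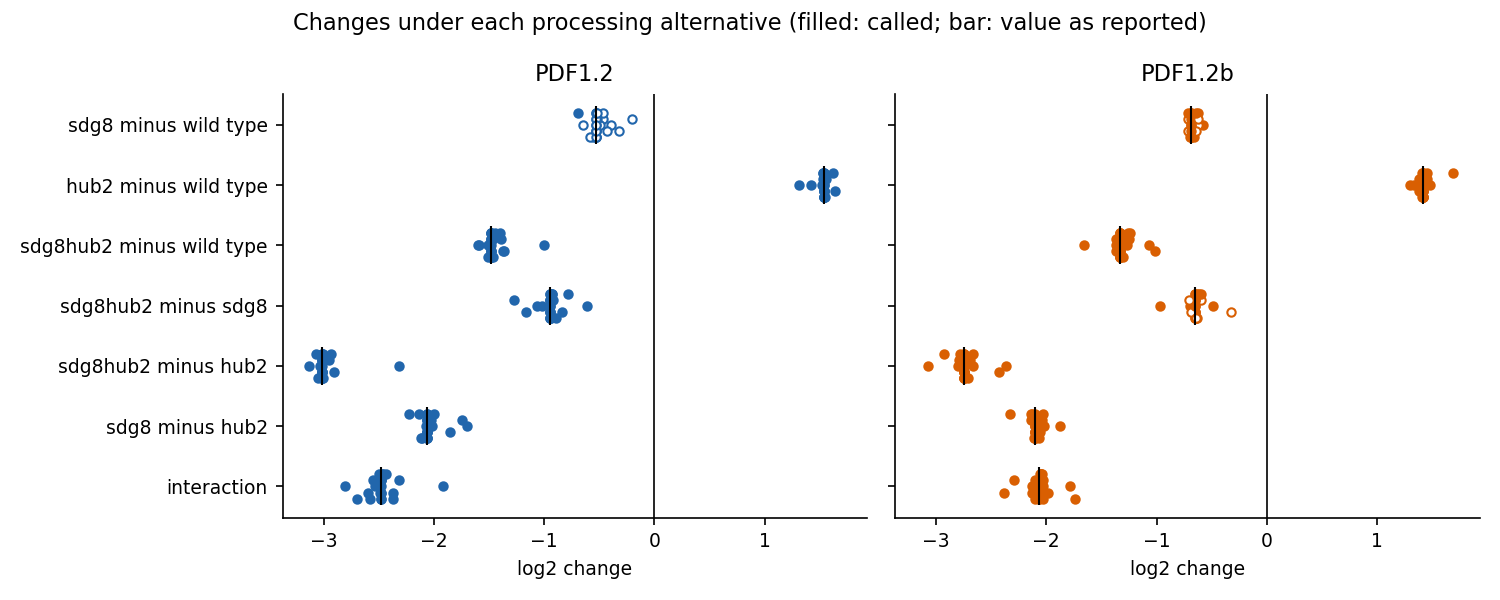
Log2 change of PDF1.2 and PDF1.2b in each comparison under each processing alternative (points, filled where called) beside the value as reported (bar). Open points appear in sdg8 against wild type for both genes and, for PDF1.2b, in the double mutant against sdg8.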

How the data were processed

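Labelled RNA of 12 samples was read on Affymetrix 3' arrays, and the deposited intensities are the authors' values, made with MAS5 and the affy package per the submitters' processing notes, which name no version. They are on a linear scale with a common trimmed mean. From them, log2 values were taken after raising the lowest 1% to an intensity of 1.18. After leaving out 64 control probe sets, those above the 20th percentile of mean log2 value were kept, 18196 in all. A group-means model was fitted to all of them with limma 3.58.1 (R 4.3.3), an intensity trend, 8 residual degrees of freedom, two-sided p-values and Benjamini-Hochberg adjustment over all probe sets tested, in each of 7 comparisons, which share arrays. The fit was tried on simulated independent noise with changes put into hub2 only, and scored for hub2 against wild type. That run does not bear on the interaction or on comparisons with sdg8. With 3 arrays per group their number limits the precision. The p-values set each difference against the spread between arrays, pooled over the 4 groups and moderated by limma. The labels do not say what was separate between replicates, so what that spread contains is unknown.

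The platform annotation gives 1 symbol for 13513 probe sets, several for 503 and none for 8794, and 13436 of the first matched RefSeq (TAIR10.1), used for names and gene order only. Named genes are the 3 genes in every comparison, up to 4 called members per gene list and comparison with the smallest adjusted p, and the 5 most similar and 2 most opposite probe sets by correlation; other list members, markers and genomic neighbours named were chosen after their values were seen. The members and lists were chosen with earlier results of these data known. From the name search for defensins, 2 false matches, peptide deformylases, were removed. Same-numbered replicates did not deviate together across groups (correlations from -0.127 to 0.0363), so no pairing was used. Alternatives changed the filter, scale, normalization, variance model, covariates and arrays included; 1 covariate, from a second pair of actin controls, was added after seeing the data. Probe and genome sequences were not used here.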

Additional observations from a re-analysis of the deposited data

Results flagged for a closer look

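In PDF1.2 the effect of the hub2 mutation differed between seedlings with and without the sdg8 mutation, by a test of the difference itself. The interaction was -2.48 on the log2 scale (SE 0.27, limma adjusted p = 3.62e-06). In PDF1.2b the same test gave -2.06 (SE 0.29, limma adjusted p = 7.92e-05). In both genes the 3 hub2 arrays were above all wild-type arrays, a description only, as the share of all probe sets that separate so was not computed. The double mutant was below sdg8 on all 3 arrays for PDF1.2 and overlapped it for PDF1.2b. The probe sets may read shared transcripts, so these results are not independent of each other.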

How the results depend on the processing

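For PDF1.2, 6 of 7 comparisons kept their call and direction under every alternative run, and for PDF1.2b 5 of 7. With the replicate block the hub2 change of PDF1.2 was 1.53 and that of PDF1.2b 1.41, and the block ended 1 call named in the text, THI2.2 in hub2 (-0.53). PDF1.2 in sdg8 ranged from -0.69 to -0.32 with 1 array left out, and passed only without sdg8 replicate 1. PDF1.2b in sdg8 lost its call without the variance trend (-0.69), without sdg8 replicates 2 and 3 (-0.63) and without any 1 of 5 arrays (-0.72 to -0.62 over all arrays left out). PDF1.2b in the double mutant against sdg8 lost it without the filter, without the trend and with only the groups compared (-0.65 each), under quantile normalization (-0.60), without sdg8 replicates 2 and 3 (-0.71), and without any 1 of 5 arrays (-0.97 to -0.33 over all left out). THI2.1 was never called, and turned sign in the interaction under quantile normalization (-0.0698), the actin covariate (-0.0153) and arrays left out (-0.67 to 0.54). Its sdg8 difference turned under quantile normalization (0.0509) and arrays left out (-0.26 to 0.0032). For sdg8 against hub2 arrays left out gave -0.0448 to 1.15. The double mutant against hub2 turned with log2(intensity + 64) (0.0021), median centring (0.0604), the second actin covariate (0.0080) and arrays left out (-0.76 to 0.45). The stricter filter left THI2.1 out. The cause was not tested. Probe sets called in hub2 numbered 519, against 341 with median centring, 127 without the trend, 835 with array weights, 233 with the second actin covariate and 210 to 554 with 1 array left out. For the interaction they numbered 1175, against 530 without the trend. Without sdg8 replicates 2 and 3, which leaves 1 sdg8 array assumed to vary like the other groups, they were 528 for the interaction, 1203 of 2925 for sdg8 against hub2, 1110 of 2598 against wild type and 971 of 2623 for the double mutant against sdg8. The arrays give no detection calls used here, so signal over background is unknown for THI2.1.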
